A study of Homo sapiens with 15 samples.

Results

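The HOX cluster genes are the 39 protein-coding genes that lie in the 4 HOX clusters of the human genome, and their active chromatin was examined in MDA-MB-231 breast cancer cells. Members were taken by symbol (HOXA, HOXB, HOXC or HOXD followed by a number) from the hg19 version of the GENCODE annotation, out of 20176 protein-coding genes. There were 11 HOXA genes on chromosome 7, 10 HOXB genes on chromosome 17, 9 HOXC genes on chromosome 12 and 9 HOXD genes on chromosome 2. Peaks within 2 kb of a gene start or inside the span of a cluster were counted as HOX peaks, which gave 24 of 22572 H3K4me3 peaks and 42 of 62195 H3K27ac peaks. H3K4me3 marks active promoters, and H3K27ac marks active promoters and enhancers. Both were profiled by ChIP-seq, in which antibody-bound chromatin fragments are sequenced and counted over peaks.

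MDA-MB-231 is an established human line of claudin-low, triple-negative breast cancer, and the parental line is called Par. LM2 and BrM2 are sub-populations of it that were selected in mice for growth in the lung and in the brain, respectively. All cells were cultured untreated, with 10% serum, for 3 days before fixation. Each line had 2 replicates per mark, called biological replicates in the study's methods, which makes 12 libraries. The sample descriptions do not say whether they were separate cultures, and p-values measure the spread between these libraries. Each metastatic tropism is represented by a single derived population. Totals in peaks ran from 3489607 to 9839629 counts in the H3K4me3 libraries and from 1994996 to 6450028 in the H3K27ac libraries, with the lowest total in replicate 2 of BrM2. Values below are normalized counts, which are the reads counted in a peak after division by the library's size factor. H3K4me3 was present at the starts of 7 of 7 mesenchymal marker genes with summed levels of 5402 to 6329 normalized counts per library. It was also present at 9 of 10 luminal epithelial markers, at 1064 to 1805, and GATA3 had no peak. Of 7 annotated markers of other cell types, 2 had a peak (SFTPC and NKX2-1), with sums of 45.9 to 198, and PTPRC, CD3E, CDH5, RBFOX3 and GFAP had none. DESeq2 called 2 luminal markers in LM2 (1 higher and 1 lower) and 4 in BrM2 (3 of them higher) of the 9 with a peak, where 2.51% and 3.61% of all tested peaks were called, and it called NKX2-1 higher in BrM2. The part of these markers in the results below was not tested.

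HOX genes encode homeodomain transcription factors that give cells their position along the body axis in the embryo. Within a cluster, genes of low number lie at the 3′ end and are used early and towards the head, and genes of high number lie at the 5′ end and are used late and towards the tail. Genes with the same number in different clusters are paralogs. Clusters are classic targets of Polycomb repression and Trithorax activation, retinoic acid switches on their 3′ ends, and HOX proteins bind DNA together with cofactors of the TALE class such as PBX and MEIS. Adult epithelia keep part of the embryonic HOX pattern, and HOX genes are often misused in breast cancer.

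The promoters of HOXA13 and HOXD1 are shown because their start peaks were called in the fit with the replicate block, the first lower in BrM2 and the second higher in LM2. They were read from GRCh37 (hg19) over 250 bases before to 50 bases after the canonical transcript start, 5′ to 3′ on the strand of the gene, with CpG dinucleotides in capitals. HOXA13 lies at chr7:27239661-27239960 on the minus strand and HOXD1 at chr2:177053146-177053445 on the plus strand.
HOXA13: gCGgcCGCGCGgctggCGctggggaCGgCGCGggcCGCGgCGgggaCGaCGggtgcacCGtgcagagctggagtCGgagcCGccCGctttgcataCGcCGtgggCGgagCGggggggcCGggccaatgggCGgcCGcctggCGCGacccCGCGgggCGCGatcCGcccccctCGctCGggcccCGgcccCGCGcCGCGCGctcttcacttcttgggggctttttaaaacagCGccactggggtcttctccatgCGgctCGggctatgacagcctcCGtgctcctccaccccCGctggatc
HOXD1: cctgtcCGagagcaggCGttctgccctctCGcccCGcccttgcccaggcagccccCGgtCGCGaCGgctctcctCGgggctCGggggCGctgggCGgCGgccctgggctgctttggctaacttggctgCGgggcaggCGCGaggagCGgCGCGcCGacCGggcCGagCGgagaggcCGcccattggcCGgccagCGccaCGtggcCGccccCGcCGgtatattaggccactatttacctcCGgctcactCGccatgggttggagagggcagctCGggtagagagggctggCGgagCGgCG
HOXA13 held 44 CpGs in 300 bases and HOXD1 held 36. Over the 8 HOX promoters with an H3K4me3 peak the median was 16.5 CpGs (range 4 to 44), and over the 31 without one it was 18 (4 to 34). Over all 19819 protein-coding promoters the medians were 28 with a peak and 5 without. HOX promoters without H3K4me3 were therefore nearer in CpG number to HOX promoters with it than was the case over all genes. The motif CCAAT was present on either strand in 29 of 39 HOX promoters (74.4%) and in 36% of all promoters, and it was present in both sequences above. TATAAA was found in 17.9% of HOX promoters and 9.65% of all, the homeodomain core TAATTA in 10.3% and 3.05%, and the PBX and HOX motif TGATTNAT in 7.69% and 1.89%. Neither sequence above held any of these other motifs. These shares are descriptions of the letters in the window.

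By canonical start, a smaller share of HOX genes than of all protein-coding genes carried active marks in these cells. H3K4me3 was found within 2 kb of the start of 8 of 39 HOX genes (20.5%), against 13521 of 19819 protein-coding genes (68.2%). H3K27ac was found at 16 of 39 (41.0%), against 68.5% of protein-coding genes. The 8 genes with H3K4me3 were HOXA13, HOXB5, HOXB6, HOXB9, HOXC5, HOXD1, HOXD4 and HOXD12, and all 8 also had H3K27ac. Another 8 had H3K27ac without H3K4me3 (HOXA2, HOXB1, HOXB2, HOXB3, HOXB4, HOXC9, HOXD8 and HOXD11), which is 20.5% of HOX genes and 3.09% of protein-coding genes. Of these, HOXB3 and HOXC9 had H3K4me3 at the start of another protein-coding transcript. Their H3K27ac start peaks stood at percentiles 5.95 (HOXB4) to 39.1 (HOXA2) of all H3K27ac peaks by normalized count per kb. The exception was the long peak shared by HOXB3 and HOXB4, at percentile 71.7. Neither mark was found at 23 HOX starts (59.0%, against 28.7%). The start here is that of the canonical transcript. Counting the starts of all protein-coding transcripts, 14 HOX genes had H3K4me3 and 20 had H3K27ac, and a 5 kb window gave 21 and 28. Shares of all protein-coding genes under these rules are not given here. The consensus peaks were called by the authors on merged libraries, so these counts do not differ between lines.

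**Figure D1:**
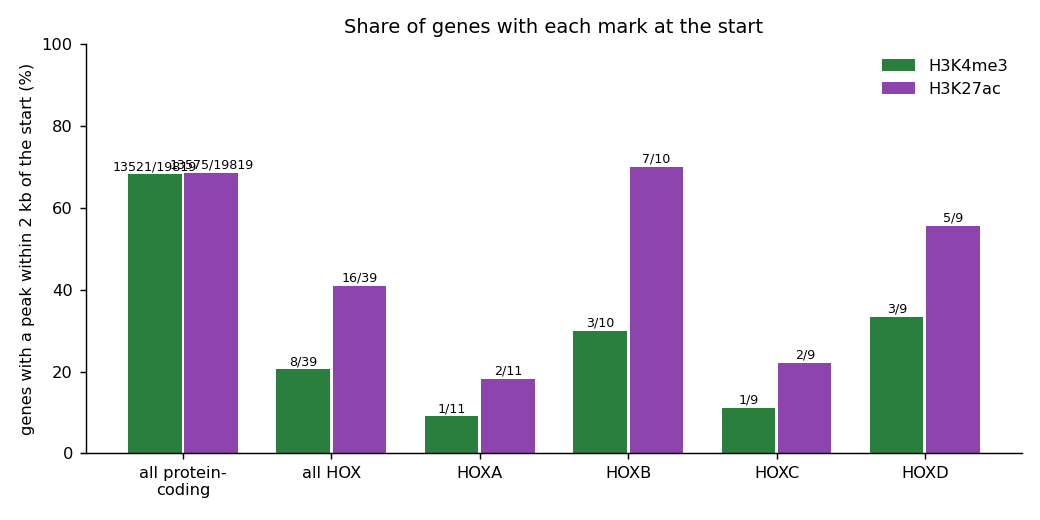
Bars give the share of genes, in percent, with an H3K4me3 (green) or H3K27ac (purple) peak within 2 kb of the canonical start, and the numbers above them are genes with a peak of all genes in the set. H3K4me3 reached 20.5% of HOX genes and 68.2% of protein-coding genes, and H3K27ac reached 70% of HOXB genes and 18.2% of HOXA genes.

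The peaks in the clusters were of modest strength. The median HOX peak stood at percentile 40.1 of all H3K4me3 peaks and at percentile 39.0 of all H3K27ac peaks by mean normalized count per kb. Only 4 of 24 H3K4me3 and 14 of 42 H3K27ac peaks were above the median level of their mark. HOX H3K4me3 peaks had a median length of 1273 bp, against 1601 bp over all peaks, and HOX H3K27ac peaks 1732 bp, against 1468 bp. Of the H3K4me3 peaks in the clusters, 19 of 24 overlapped an H3K27ac peak (79.2%, against 87.6% of all H3K4me3 peaks), and 23 H3K27ac peaks had no H3K4me3 beneath them.

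**Figure D2:**
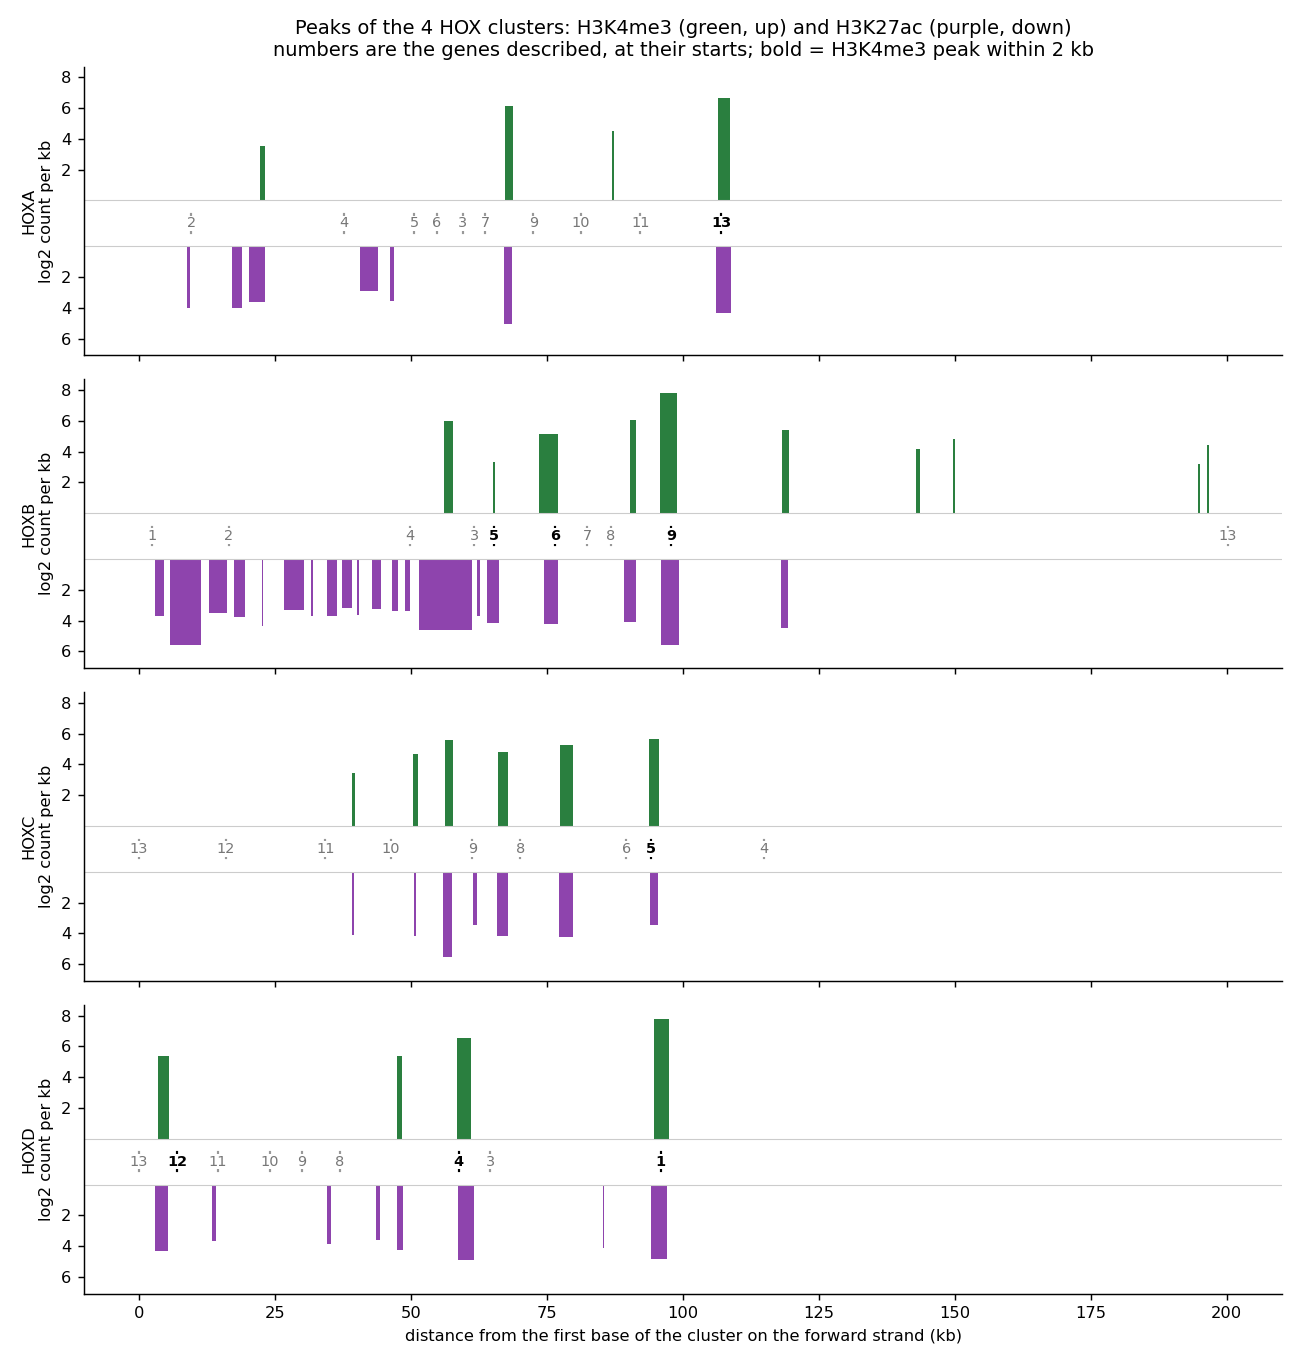
Peaks of the 4 clusters against the distance in kb from the first base of each cluster, with bar heights giving the mean level over the 6 libraries as log2 normalized count per kb (H3K4me3 up, H3K27ac down) and numbers marking the canonical starts of the genes described. H3K27ac peaks crowd the 3′ side of HOXB, where H3K4me3 is absent until the HOXB3 region, while most of HOXA carries few peaks of either mark.

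HOXA had 4 H3K4me3 and 7 H3K27ac peaks, and H3K4me3 was strongest at the 5′ end. HOXA13, the last gene of the cluster and a regulator of distal limb and hindgut, was the only HOXA gene with H3K4me3 at its canonical start. HOXA7 lay 3728 bp from the nearest H3K4me3 peak. The HOXA13 peak (chr7:27239034-27241380) covers the starts of HOXA13 and of the long non-coding RNA HOTTIP and exon sequence of HOXA13, and it had the highest H3K4me3 of the cluster. Its normalized counts were 296 and 249 in Par, against 252 and 256 in LM2 and 166 and 192 in BrM2. Both BrM2 libraries were below all 4 others. The log2 fold change of BrM2 against Par was -0.60 ± 0.34 (SE), which was not called (DESeq2 adjusted p = 0.588), and it was called lower with the replicate number as a block (-0.58 ± 0.20, adjusted p = 0.0249). H3K27ac over the same start was 51.4 and 75.1 in Par, against 46.0 and 62.1 in LM2 and 37.0 and 63.6 in BrM2, with overlap between all lines. The strongest H3K27ac peak of HOXA per kb (chr7:27199779-27201288, 32.4 normalized counts per kb) lies between HOXA7 and HOXA9, outside any protein-coding gene record. It held 59.2 and 25.0 in Par, against 38.1 and 54.2 in LM2 and 79.9 and 36.6 in BrM2, so replicates of a line differed more than lines did. HOXA2 had a weak H3K27ac peak 238 bp from its start with normalized counts from 3.0 to 13.5.

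In HOXB, H3K27ac was spread over the 3′ side while H3K4me3 was not. The cluster had 20 H3K27ac peaks that covered 23.1% of its span. Much of this spread rested on weak peaks. Between the HOXB2 and HOXB4 starts they stood at percentiles 2.84 to 25.0 of all H3K27ac peaks by normalized count per kb, apart from a 202 bp peak at 59.6. HOXB1, HOXB2, HOXB3 and HOXB4, which pattern the hindbrain, all had H3K27ac within 2 kb of their canonical starts and no H3K4me3. The nearest H3K4me3 peaks were at 3324 bp (HOXB3) to 53598 bp (HOXB1) from these starts. The strongest H3K27ac peak there (chr17:46611716-46617315, 5600 bp between HOXB1 and HOXB2, 48.1 normalized counts per kb) held 318 and 214 in Par, against 366 and 180 in LM2 and 300.3 and 235 in BrM2. Its log2 fold change against Par was 0.04 ± 0.36 in LM2 and 0.01 ± 0.36 in BrM2 (DESeq2 adjusted p = 0.993 and 0.995). The longest H3K27ac peak of all clusters (chr17:46657344-46667127, 9784 bp long, within 2 kb of the HOXB3 and HOXB4 starts) held 237 and 235 in Par, against 210 and 266 in LM2 and 243 and 256 in BrM2. Lines overlapped at both of these peaks except that BrM2 was just above Par at the longer peak. HOXB7, HOXB8 and HOXB13 had neither mark within 2 kb of the start. HOXB5 had the weakest H3K4me3 start peak, with normalized counts of 0 to 5.6 and raw counts of 0 to 9, so a difference there was not detectable at this depth.

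In HOXC, most peaks were more than 2 kb from the canonical starts and inside longer gene records such as that of HOXC6. HOXC5 alone had H3K4me3 at its canonical start (chr12:54426474-54428221, over exon sequence of HOXC5 and the miRNA gene MIR615), at 71.6 and 71.7 normalized counts in Par, against 73.2 and 104 in LM2 and 100.2 and 116 in BrM2. The other 5 H3K4me3 peaks of the cluster were 2199 to 7347 bp from the nearest HOX start. The strongest H3K27ac peak (chr12:54388590-54390250, 46.5 normalized counts per kb) covers starts of alternative HOXC9 and HOXC6 transcripts and of HOXC-AS2, and it held 47.0 and 84.1 in Par, against 53.9 and 79.8 in LM2 and 77.0 and 121 in BrM2. HOXC12 and HOXC13, the 5′ end of the cluster, lay 23218 and 39290 bp from the nearest H3K4me3 peak.

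HOXD had 4 H3K4me3 peaks, at HOXD1, HOXD4, HOXD12 and inside the HOXD3 record, and 8 H3K27ac peaks. HOXD1, the 3′ end gene, had the strongest H3K4me3 of the cluster (chr2:177052150-177055008, 222 normalized counts per kb, with the starts of HOXD1 and HAGLR). Its normalized counts were 604 and 472 in Par, against 826 and 591 in LM2 and 787 and 532 in BrM2, with replicate 1 above replicate 2 in every line. HOXD4 was marked at 195 and 180 in Par, against 270 and 240 in LM2 and 331 and 205 in BrM2, and HOXD12 at 73.5 and 110.2 in Par, against 56.4 and 85.8 in LM2 and 69.9 and 109.5 in BrM2. The strongest H3K27ac peak of HOXD was at HOXD4 (chr2:177016121-177019034, 29.6 normalized counts per kb), with 88.0 and 102 in Par, against 93.1 and 119 in LM2 and 65.3 and 50.1 in BrM2. Both BrM2 libraries were below the other 4, yet the log2 fold change of BrM2 against Par was -0.70 ± 0.37 and was not called (DESeq2 adjusted p = 0.355). HOXD9, HOXD10 and HOXD13 had neither mark within 2 kb, and neither had HOXD3 at its canonical start.

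**Figure D3:**
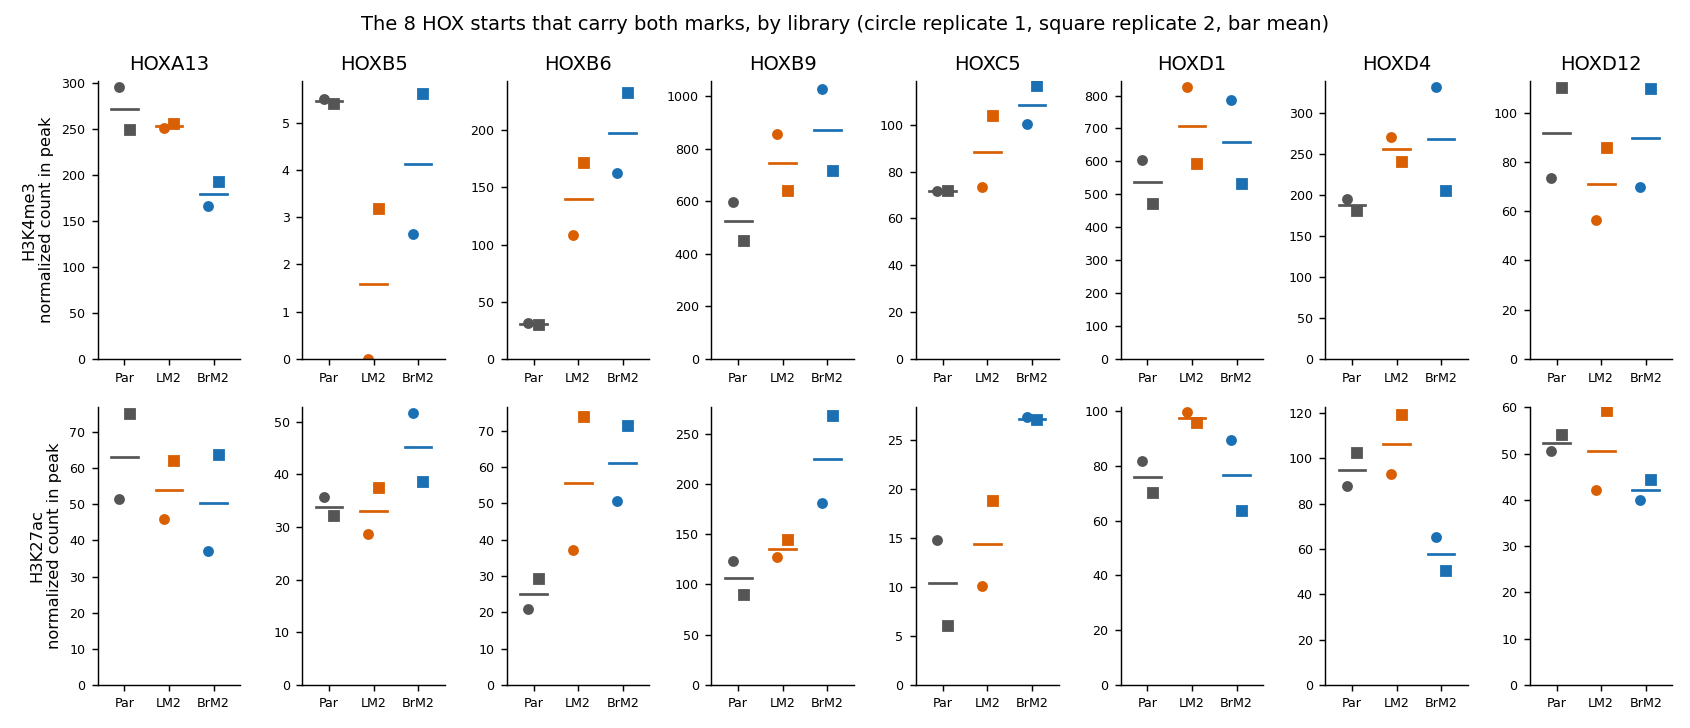
Normalized counts in the H3K4me3 (upper row) and H3K27ac (lower row) peaks at the 8 HOX starts that carry both marks, with a circle for replicate 1, a square for replicate 2 and a bar for the mean of each line, each panel with its own axis from 0. HOXB6 H3K4me3 is 31.2 and 30.1 in Par and between 108 and 233 in the other 4 libraries.

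To ask whether the metastatic lines differ from Par at these loci, peaks were compared in a DESeq2 fit over all peaks of the mark, and a peak was called at an adjusted p under 0.05. HOXB6, a gene of the central part of the cluster that is used in the trunk of the embryo, was the HOX locus whose H3K4me3 was called higher in both metastatic lines. Its peak (chr17:46679492-46682988, 3497 bp) covers the start and exon sequence of HOXB6 and the starts of alternative HOXB3 and HOXB-AS3 transcripts. Normalized counts were 31.2 and 30.1 in Par, against 108 and 172 in LM2 and 162 and 233 in BrM2, from raw counts of 17 to 374. All 4 metastatic libraries were above both Par libraries. Means were 30.6 ± 0.833 (SD, n = 2) in Par, 140 ± 44.7 in LM2 and 197 ± 49.95 in BrM2. HOXB6 H3K4me3 differed by a log2 fold change of 2.21 ± 0.45 in LM2 (DESeq2 adjusted p = 0.000193), 2.70 ± 0.45 in BrM2 (adjusted p = 4.77e-07) and 2.45 ± 0.40 for the mean of both lines (adjusted p = 3.96e-07). Within replicate 1 and replicate 2 the log2 difference was 1.76 and 2.47 in LM2 and 2.34 and 2.91 in BrM2. The LM2 call rested on 2 libraries. Without replicate 2 of LM2 the log2 fold change was 1.81 (adjusted p = 0.107), and without replicate 2 of Par it was 2.178 (adjusted p = 0.081).

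That peak was 1 of 21 HOX H3K4me3 peaks tested in LM2, where 2.51% of all tested peaks were called, and 1 of 23 in BrM2, where 3.61% were called. In the mean of both lines it was 1 of 21, with 2.63% called. A count of 1 is near the background and is not a result about the HOX genes as a group. At an unadjusted p under 0.05 there were 1, 5 and 3 HOX H3K4me3 peaks in LM2, BrM2 and the mean (DESeq2), with no share over all peaks at hand. In LM2, 14 of 21 tested HOX peaks had a positive log2 fold change (66.7%, against 51.1% of all tested peaks), with a median of 0.32 against 0.01. In BrM2, 15 of 23 were positive (65.2% against 48.4%), with a median of 0.50 against -0.02. Both LM2 libraries were above both Par libraries at 8 of 24 HOX peaks, and both were below at 2, where 18.0% and 16.0% of all peaks did so. For BrM2 the counts were 9 and 2, with 21.6% and 17.3% over all peaks.

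Same-numbered replicates of the lines deviated together, and with the replicate number as a block more HOX peaks were called. In LM2 there were 3, all higher (14.4% of all tested peaks were called in that fit, 8.90% higher). In BrM2 there were 7, of which 6 were higher and 1 lower (17.7% of all, 8.55% higher and 9.11% lower), and in the mean of both lines there were 4, all higher (15.2% of all, 8.03% higher). HOXB9, a gene of the trunk region and the strongest H3K4me3 site of all clusters (chr17:46701684-46704809, 229 normalized counts per kb), held 599 and 451 in Par, against 855 and 640 in LM2 and 1029.6 and 717 in BrM2. Both libraries of each metastatic line were above both Par libraries. Without the block its log2 fold changes were 0.51 ± 0.34 in LM2 and 0.74 ± 0.34 in BrM2 (DESeq2 adjusted p = 0.897 and 0.363), and it was called with the block (adjusted p = 0.000438 and 6.06e-08). HOXD1 was called with the block in LM2 (0.38 ± 0.12, adjusted p = 0.0204) but not in BrM2 (0.27 ± 0.13, adjusted p = 0.125), and without it had log2 fold changes of 0.40 ± 0.35 and 0.29 ± 0.35 (adjusted p = 1 and 0.992). HOXA13 was the peak called lower in BrM2, with the values given above.

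The remaining 4 peaks called in BrM2 with the block were more than 2 kb from any canonical HOX start. At chr17:46661971-46663694, 3909 bp from the HOXB3 start and inside the long H3K27ac domain, H3K4me3 was 38.6 and 97.1 in Par, against 83.9 and 142 in LM2 and 117 and 170 in BrM2. The log2 fold change of BrM2 was 1.05 ± 0.49 (DESeq2 adjusted p = 0.365) and with the block 1.11 ± 0.30 (adjusted p = 0.00264). The others lay in HOXC. The HOXC-AS2 peak, over the starts of HOXC-AS2 and an alternative HOXC9 transcript (chr12:54388900-54390403), held 33.1 and 67.8 in Par, against 41.2 and 76.2 in LM2 and 77.8 and 142 in BrM2. The peak 2199 bp upstream of HOXC8 (chr12:54398596-54400570) held 18.4 and 50.1, 33.5 and 41.8, and 80.4 and 107 in the same order. The peak over an alternative HOXC4 start (chr12:54410116-54412439) held 36.7 and 89.4, 61.0 and 99.5, and 85.7 and 172. In all 3 the BrM2 mean was the highest and replicate 2 was above replicate 1 in every line. Log2 fold changes of BrM2 were 1.10 ± 0.52, 1.40 ± 0.54 and 1.01 ± 0.52 without the block (DESeq2 adjusted p = 0.392, 0.163 and 0.487) and were called with it (adjusted p = 0.00934, 0.00433 and 0.00937). Leaving out 1 library moved the unblocked values to between 0.617 and 1.74, 0.891 and 2.36, and 0.433 and 1.82, and that of the HOXB peak to between 0.551 and 1.90.

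**Figure D4:**
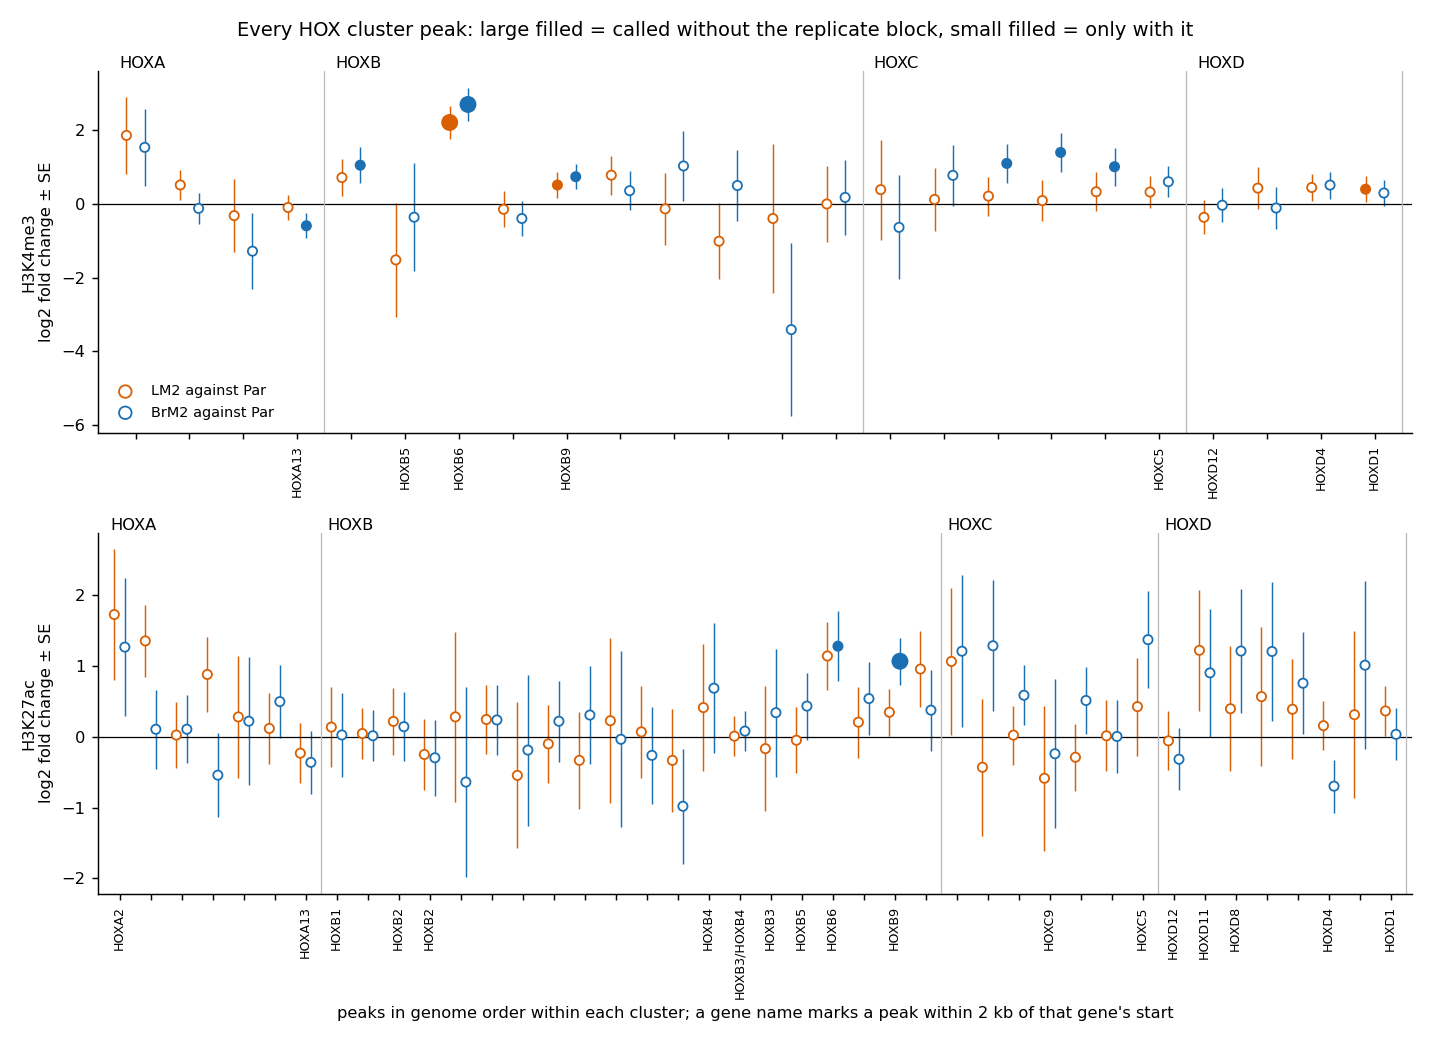
Log2 fold change ± SE of every HOX peak for LM2 (orange) and BrM2 (blue) against Par, with peaks in genome order within each cluster and gene names at start peaks. Large filled points are called without the replicate block and small filled points only with it: HOXB6 H3K4me3 stands apart at 2.21 and 2.70, and HOXB9 is the called H3K27ac peak at 1.06.

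For H3K27ac, HOXB9 was higher in BrM2. The peak (chr17:46701960-46705190, over the start and coding sequence of HOXB9) held 124 and 89.1 normalized counts in Par, against 127 and 144 in LM2 and 181 and 268 in BrM2. The 3 lines did not overlap. The log2 fold change of BrM2 was 1.06 ± 0.33 (DESeq2 adjusted p = 0.0319), 1 of 36 HOX peaks tested, where 5.29% of all tested peaks were called. Within replicates it was 0.55 and 1.58. The call was lost without any 1 of the 6 libraries, with adjusted p from 0.0678 to 0.551 and log2 fold changes from 0.77 to 1.34, when only Par and BrM2 entered the fit (adjusted p = 0.0649), and with the median log2 fold change of 5 Mb windows removed (1.00, adjusted p = 0.0566). In LM2 the change was 0.34 ± 0.33 (adjusted p = 0.823). No HOX H3K27ac peak of 32 tested was called in LM2, where 3.63% of all were, or of 32 in the mean of both lines, where 4.85% were. At an unadjusted p under 0.05 (DESeq2) there were 2 in each of these and 3 in BrM2, with no share over all peaks at hand. In LM2 and in the mean, edgeR called 1 each, which was chr7:27149732-27151651 in LM2 (5.14% of all peaks) and the HOXB6 peak in the mean (6.32% of all).

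At the HOXB6 start, the H3K27ac calls depended on the fit. The H3K27ac peak (chr17:46680377-46682906) held 20.9 and 29.0 in Par, against 37.0 and 73.9 in LM2 and 50.7 and 71.3 in BrM2, and all 4 metastatic libraries were above Par. It differed from Par by log2 fold changes of 1.14 ± 0.48 in LM2, 1.28 ± 0.49 in BrM2 and 1.21 ± 0.43 for the mean of both (DESeq2 adjusted p = 0.226, 0.12 and 0.0805). With the replicate block BrM2 and the mean were called (adjusted p = 0.0398 and 0.0276) and LM2 was not (0.12). With the block, 0 of 30 HOX peaks were called in LM2 (5.44% of all), 2 of 32 in BrM2 (8.13%) and 1 of 28 in the mean (7.66%). The peak chr7:27149732-27151651 in the HOXA3 record held 18.3 and 22.0 in Par, against 40.4 and 63.1 in LM2 and 20.5 and 23.1 in BrM2. Its log2 fold change was 1.35 ± 0.51 in LM2 (DESeq2 adjusted p = 0.129), and it is named here, after its values were seen, as the peak that edgeR called. Of the tested HOX peaks 24 of 32 had a positive change in LM2 (75.0%, against 46.5% of all) and 29 of 36 in BrM2 (80.6% against 49.4%). Medians were 0.145 and 0.27, against -0.04 and -0.01 over all tested peaks. Both LM2 libraries were above both Par libraries at 8 of 42 peaks and below at 2 (21.7% and 21.6% of all peaks), and BrM2 libraries at 12 and 5 (25.0% and 25.4%).

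Between the metastatic lines, no HOX peak was called. For H3K4me3, 0 of 24 were called (3.18% of all), with 1 at an unadjusted p under 0.05 and 0 in edgeR. With the replicate block 2 of 23 were called, both higher in BrM2 than in LM2 (22.0% of all, 8.99% higher). These were the HOXC-AS2 peak (0.91 ± 0.33, DESeq2 adjusted p = 0.0322) and the peak upstream of HOXC8 (1.33 ± 0.40, adjusted p = 0.00675). For H3K27ac, 0 of 29 were called (2.94% of all), with 4 at an unadjusted p under 0.05 and 0 in edgeR, and 0 of 27 with the block (6.17% of all). HOXB6 differed between the metastatic lines by 0.49 ± 0.41 for H3K4me3 (DESeq2 adjusted p = 0.828) and HOXB9 by 0.72 ± 0.33 for H3K27ac (adjusted p = 0.284), and neither was called. With edgeR and the replicate block both were called (0.47, adjusted p = 0.0288, and 0.68, adjusted p = 0.0208).

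With edgeR, 1, 1, 1 and 0 HOX H3K4me3 peaks were called in LM2, in BrM2, in the mean of both lines and between the metastatic lines, where 1.61%, 3.07%, 1.60% and 2.81% of all peaks were called. For H3K27ac the counts were 1, 1, 1 and 0, with 5.14%, 6.88%, 6.32% and 3.89% of all. With the replicate block in edgeR there were 7, 12, 10 and 9 for H3K4me3 (26.2%, 33.3%, 27.1% and 38.6% of all) and 3, 3, 2 and 4 for H3K27ac (13.2%, 15.9%, 15.1% and 12.5%).

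Levels summed over a cluster put H3K4me3 in order Par, LM2, BrM2 in HOXB and HOXC, and lowest in BrM2 in HOXA. Over the 10 HOXB peaks it was 62.5 and 61.6 normalized counts per kb in Par, against 92.5 and 92.3 in LM2 and 113 and 104 in BrM2, without overlap between lines. Of these 10 peaks 4 had a positive log2 fold change in LM2 (median -0.07) and 7 in BrM2 (median 0.43), so the difference in the sum was not shared by all peaks. Most of it lay in peaks already described. The HOXB9 peak had means of 525 normalized counts in Par, 747 in LM2 and 873 in BrM2. The HOXB6 peak had 30.6, 140 and 197. Over the 6 HOXC peaks H3K4me3 was 19.3 and 35.5 in Par, against 25.4 and 40.5 in LM2 and 40.8 and 67.0 in BrM2. The within-replicate log2 difference of BrM2 and Par in HOXC was 1.08 and 0.92. Over the 4 HOXA peaks both BrM2 libraries were below the other 4, with 77.5 and 71.9 in Par, against 80.1 and 79.9 in LM2 and 53.2 and 56.6 in BrM2. Most HOXA counts lay in the HOXA13 peak, with means of 272 in Par, 254 in LM2 and 179 in BrM2. The HOXA level therefore largely restates that peak. HOXD held 109 and 97.2 in Par, against 145 and 117 in LM2 and 147 and 107 in BrM2, where both LM2 libraries were above both Par libraries and BrM2 overlapped the other lines. For H3K27ac sums the within-replicate log2 differences from Par ran from -0.15 (HOXC in LM2, replicate 1) to 0.53 (HOXC in BrM2, replicate 1). These sums were not tested. Over the peaks within 2.5 Mb on either side of the clusters the median H3K4me3 log2 fold changes against Par were 0.03 in LM2 and 0.05 in BrM2 at HOXB, and -0.23 and -0.10 at HOXC. At HOXA they were 0.11 in LM2 and 0.09 in BrM2, and at HOXD -0.205 and -0.166.

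**Figure D5:**
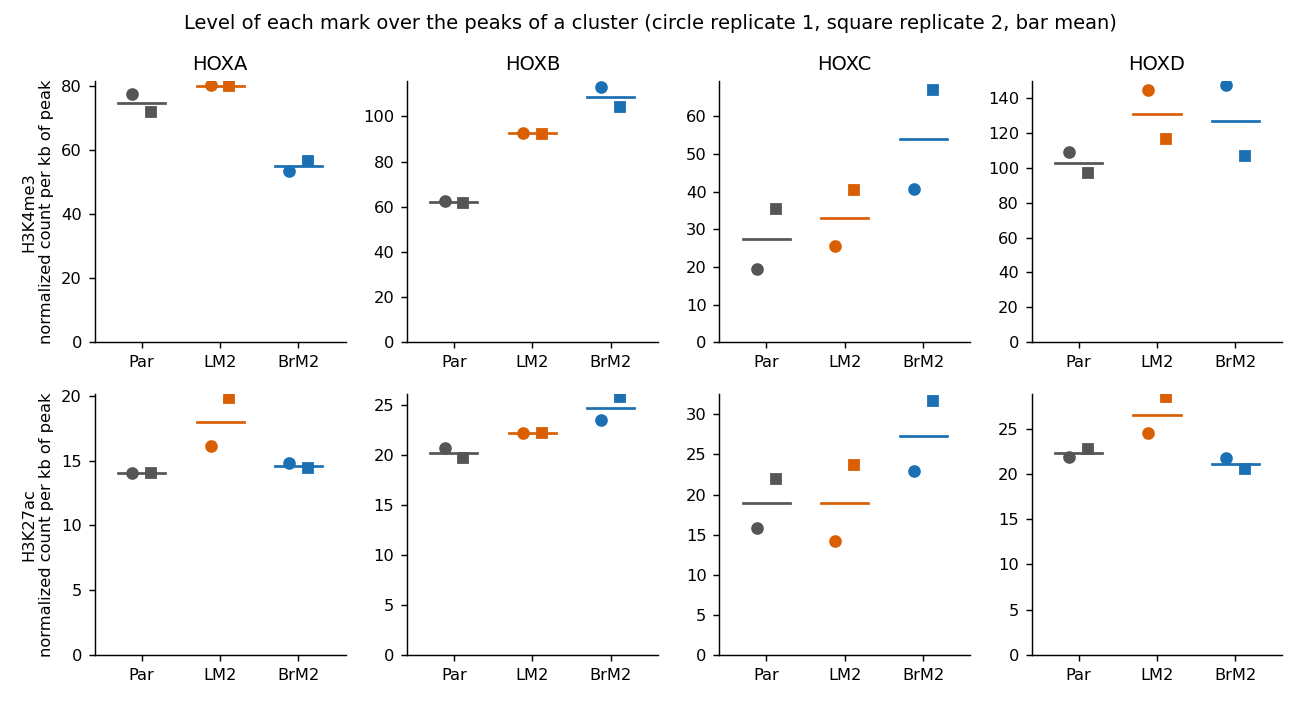
Normalized counts per kb over all peaks of a cluster in each library, for H3K4me3 (upper row) and H3K27ac (lower row), with a circle for replicate 1, a square for replicate 2 and a bar for the mean of each line, each panel with its own axis from 0. HOXB H3K4me3 is separate in the 3 lines, and HOXA H3K4me3 is lowest in BrM2 at 53.2 and 56.6.

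The marks were compared where an H3K4me3 peak and an H3K27ac peak of a cluster overlapped. Of 19 such pairs, the changes of both marks had the same sign in 16 in LM2 and in 13 in BrM2. The share over all overlapping peaks was not counted, so these counts are not a result about the HOX genes. Over the 19 pairs the Pearson correlation of the changes was 0.483 in LM2 and 0.205 in BrM2. The Spearman correlation was 0.563 and 0.144. Among pairs at canonical starts, HOXB6, HOXB9, HOXC5 and HOXD1 were positive for both marks in both lines, as were several pairs away from these starts. HOXA13 and HOXD12 were negative for both marks in both lines, and the H3K4me3 change at HOXA13 in LM2 was small (-0.10 ± 0.34). HOXD4 differed in sign in BrM2, with 0.51 ± 0.37 for H3K4me3 and -0.70 ± 0.37 for H3K27ac, neither of which was called. HOXB5, with few H3K4me3 counts, also differed in sign in BrM2. Its changes were -0.36 ± 1.46 for H3K4me3 and 0.43 ± 0.47 for H3K27ac, and neither was called. The libraries of each line were separate for the marks, while each contrast shares its Par libraries across peaks.

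The clusters also hold miRNA genes, which are shown for their position at HOX peaks. MIR615, inside HOXC5 (chr12:54427734-54427829), lay within the HOXC5 peaks of both marks. MIR3185 in HOXB was 342 bp from a weak H3K4me3 peak (chr17:46802179-46802556, percentile 28.2 of all H3K4me3 peaks by normalized count per kb). MIR10B (chr2:177015031-177015140) was 851 bp from the HOXD4 H3K4me3 peak. The miR-196 genes, whose products are known to repress HOX mRNAs, lay further off, MIR196A1 at 5043 bp, MIR196A2 at 1614 bp and MIR196B at 7729 bp from the nearest H3K4me3 peak. Mature sequences are from RefSeq (GRCh38.p14), with the seed (bases 2 to 8) in capitals.
hsa-miR-615-3p: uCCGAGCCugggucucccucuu
hsa-miR-196a-5p: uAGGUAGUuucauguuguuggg
hsa-miR-196b-5p: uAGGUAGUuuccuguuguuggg
The miR-196 sequences share the seed AGGUAGU, and miR-615-3p has another.

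Genes that act with or on HOX genes were described from fixed lists by their start peaks. Among 9 TALE cofactors, which bind DNA beside HOX proteins, all 9 had H3K4me3 at the start, and 1 was called higher and 1 lower in BrM2 (2.82% and 0.791% of all tested peaks). MEIS1, a cofactor of HOX proteins in blood and limb, had H3K4me3 of 281 and 325 in Par, against 509 and 570 in LM2 and 728 and 835 in BrM2 (log2 fold change of BrM2 1.36 ± 0.31, DESeq2 adjusted p = 0.00103), and its H3K27ac change was 1.56 ± 0.37 (adjusted p = 0.00136). PKNOX2, a cofactor of the PREP type, had H3K4me3 of 90.02 and 61.6 in Par and 13.2 and 20.5 in BrM2 (-2.11 ± 0.50, adjusted p = 0.0018). PBX2 H3K4me3 was higher in BrM2 than in LM2 (1.36 ± 0.38, DESeq2 adjusted p = 0.0136). In that contrast 1 of 9 TALE cofactors was called higher and 1 lower, where 3.18% of all tested peaks were called. For H3K27ac, MEIS1 was the 1 of 8 TALE cofactors tested that was called in BrM2 against Par (5.29% of all tested peaks). All 16 Polycomb subunits and all 11 Trithorax and MLL complex genes had H3K4me3 at the start, and 0 were called in any of the 4 contrasts by DESeq2 for that mark. At an unadjusted p under 0.05 there were 0 to 2 genes per contrast in each list, and edgeR called 0. With the replicate block DESeq2 called up to 1 Polycomb gene higher and 5 lower in a contrast, and up to 4 Trithorax and MLL genes lower, in fits where 14.4% to 22.0% of all tested peaks were called. H3K27ac was lower in BrM2 than in Par at EED, a Polycomb subunit (-1.04 ± 0.33, DESeq2 adjusted p = 0.0364). It was also lower at KDM6A, an H3K27 demethylase (-1.36 ± 0.30, adjusted p = 0.000427). These were 1 of 16 Polycomb and 1 of 11 Trithorax and MLL genes tested, where 5.29% of all tested peaks were called. DOT1L was lower in BrM2 than in LM2 (-0.89 ± 0.27, adjusted p = 0.0345). In that contrast 2 of 11 Trithorax and MLL genes were called, DOT1L and KDM6A, where 2.94% of all were. Single calls in lists of this size are not results about the lists. Of 16 retinoic acid pathway genes 10 had H3K27ac at the start. RXRA was lower in BrM2 (-1.23 ± 0.32, DESeq2 adjusted p = 0.00594) while ALDH1A3 was higher in LM2 (1.12 ± 0.36, adjusted p = 0.0482). Each was 1 of 10 genes tested, where 5.29% of all tested peaks were called in BrM2 and 3.63% in LM2. Of 8 ParaHox and EVX genes, the closest relatives of the clusters, 2 had H3K4me3 at the start. Of 18 annotated long non-coding RNAs of the clusters 4 had H3K4me3 (HOTTIP, HOXB-AS4, HOXC-AS2 and HAGLR) and 10 had H3K27ac at the start, and HOTAIR had neither mark at its start.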

How the data were processed

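ChIP-seq libraries of H3K4me3 and H3K27ac were analysed in Par, LM2 and BrM2 cells (12 of 15 samples; the 3 inputs were not used). Per the labels, reads were processed with Trimmomatic 0.32, Bowtie2 2.3.4.3, Picard 2.18.21, MACS2 2.1.2 and featureCounts 1.6.0 on hg19. The authors called broad consensus peaks on merged libraries, and counted raw reads per peak and library in the deposited count tables, with reads extended by 150 bp, so a region marked in a single line can be missed. The number of count columns without a sample was 0.

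Peaks were linked to GENCODE release 44 (hg19) within 2 kb of canonical starts or by sharing at least 1 bp with a cluster, which spans its protein-coding HOX genes. Lines were compared with the DESeq2 1.42.0 Wald test over all peaks of a mark (R 4.3.3, median-of-ratios size factors, cell line as the only term, 3 residual degrees of freedom, Benjamini-Hochberg adjustment over all tested peaks). Peaks without an adjusted p after independent filtering count as not tested. Counts at an unadjusted p under 0.05 have no share over all peaks beside them, so they cannot be set against a background. Deviations of same-numbered replicates from their line means correlated with r = 0.837, 0.784 and 0.82 for H3K4me3 and 0.4, 0.593 and 0.471 for H3K27ac (Par with LM2, Par with BrM2, LM2 with BrM2), so a fit with the replicate block (2 residual degrees of freedom) is given where it changes a call. The pairing rests on the numbers in the sample titles and these correlations. Depth went with replicate number in every line. H3K4me3 totals in peaks were 3489607 to 4581712 in replicate 1 and 6714331 to 9839629 in replicate 2. H3K27ac totals were larger in replicate 1. The part of depth in these correlations was not tested. edgeR 4.0.16, other scalings and filters, a 5 Mb regional correction and leave-one-out fits were alternatives. Fits without the block were tested on simulated counts with true log2 changes of 2 or 3 in well-covered peaks and no replicate effect. The simulated spread between replicates was set by the same fixed value at every peak. Smaller changes, weak peaks, larger spread and the replicate block were not covered.

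Values per library are given for called peaks and for the strongest peak per kb of each cluster and mark, and list genes are named only where called, at most 3 per list. The members and lists were chosen with earlier results of these data known. Levels per cluster were described only, with no test. Some promoter sequences and gene values are not reported here.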

Additional observations from a re-analysis of the deposited data

Results flagged for a closer look

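At 2 of 42 HOX H3K27ac peaks the libraries of LM2 and BrM2 lay on opposite sides of Par. The difference between LM2 and BrM2 was not called at either by DESeq2, while edgeR with the replicate block called the first. How many of all H3K27ac peaks lie on opposite sides in this way was not counted, so the 2 are not a result about the HOX genes. At chr7:27173280-27176602, inside the HOXA3 gene record and between HOXA4 and HOXA5, normalized counts were 20.9 and 21.03 in Par, against 40.4 and 36.5 in LM2 and 13.6 and 15.4 in BrM2. The log2 fold change of BrM2 against LM2 was -1.42 ± 0.57 (DESeq2 adjusted p = 0.189). At chr12:54398549-54400527, upstream of HOXC8, they were 29.6 and 36.1 in Par, against 25.2 and 28.6 in LM2 and 39.0 and 55.9 in BrM2, with a log2 fold change of BrM2 against LM2 of 0.801 ± 0.478 (adjusted p = 0.499). Raw counts at these peaks were 8 to 72, which limits the precision. By normalized count per kb, the first stood at percentile 0.246 of all H3K27ac peaks and the second at percentile 47.9.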

How the results depend on the processing

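The HOXB6 H3K4me3 call stood in BrM2 and in the mean of both lines under every alternative run, and in LM2 under all but those without replicate 2 of LM2 or of Par. Counts of called HOX peaks are given in the order LM2, BrM2, mean of both, BrM2 against LM2. For H3K4me3 they were 1, 1, 1 and 0, with the replicate block 3, 7, 4 and 2, and with edgeR and the replicate block 7, 12, 10 and 9 (26.2%, 33.3%, 27.1% and 38.6% of all peaks). For H3K27ac they were 0, 1, 0 and 0, with the replicate block 0, 2, 1 and 0, with edgeR 1, 1, 1 and 0, and with edgeR and the replicate block 3, 3, 2 and 4 (13.2%, 15.9%, 15.1% and 12.5% of all peaks). The HOXB9 H3K27ac count in BrM2 was 0 when only the lines compared entered the fit and 0 with the 5 Mb regional medians removed. Leaving out 1 library gave 0 to 1 for H3K4me3 in LM2 and 0 for H3K27ac in BrM2, and a line left with a single library is assumed to vary like the others. The cause of these changes was not tested. HOX starts with H3K4me3 were 21 in a 5 kb window and 14 with all protein-coding starts, and those with H3K27ac were 28 in a 5 kb window. Total-count scaling moved the HOXB H3K4me3 level from 0.575 to 0.545 in LM2 and from 0.806 to 0.87 in BrM2, and the HOXB H3K27ac level in LM2 from 0.137 to 0.202, with no sign changed among these. The HOXC H3K27ac level in LM2, with within-replicate differences of -0.151 and 0.106, did change sign and stayed small. Signs reversed at peaks that were not called, with adjusted p of 0.896 or more in each reversed fit. BrM2 against Par at chr17:46611716-46617315 (H3K27ac) was -0.0314 with the 5 Mb regional medians removed, -0.00377 with at least 10 counts in every library and -0.000756 with edgeR and the replicate block, and -0.244 to 0.328 without a library. Without a library LM2 against Par ran from -0.338 to 0.856 (HOXC-AS2), -0.401 to 1.05 (upstream of HOXC8), -0.146 to 1.15 (HOXC4) and -0.219 to 0.0242 (HOXA13) for H3K4me3. For H3K27ac it ran from -0.342 to 0.496 at chr12:54388590-54390250, -0.557 to 0.459 at chr17:46611716-46617315, -0.0295 to 0.334 at HOXD4 and -0.370 to 0.874 at chr7:27199779-27201288, where BrM2 ran from -0.203 to 1.25. The fit with only the lines compared gives no value for the mean of both lines.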
